A study of Mus musculus with 6 samples.

Results

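Cell cycle and proliferation genes were examined in RNA-Seq libraries of chronic stroke infarcts. The set holds 40 genes, chosen by name for their part in cell division, out of 46078 genes in the count tables. It comprises 27 mitotic genes, 12 genes of DNA replication (S phase) and 1 cyclin of the preceding gap phase (G1). All 40 were found in the tables, and 36 of them were among the 15554 genes abundant enough to be tested.

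Infarcts were compared with contralateral cortex, the same region of the opposite hemisphere, with 3 libraries of each. All tissue came from WT C57BL/6J male mice, with a labelled age of 3 months and a labelled time of 7 weeks, which the study counts from stroke. Stroke was made by permanent occlusion of the middle cerebral artery followed by hypoxia, so the contralateral cortex belongs to the same kind of injured, hypoxic animal and is not tissue of a naive mouse. Infarcts were dissected by eye, and each library holds the RNA of every cell type in the piece of tissue. The labels number the libraries 1 to 3 in each region without saying which pieces came from 1 mouse, so *p* values measure the spread between these tissue samples.

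A dividing cell passes from G1, in which D cyclins and E2F transcription factors commit it to division, through S phase, in which the MCM helicase and PCNA copy the DNA, to mitosis, which is driven by cyclin B with CDK1 and carried out by condensins, kinetochores and spindle motors. Transcripts of S phase genes appear earlier in the cycle than those of mitotic genes, and cells that left the cycle, such as neurons, keep most of both groups low. The adult cortex holds few cycling cells, mainly oligodendrocyte precursors, whereas glia, vascular and stromal cells and infiltrating leukocytes can divide after ischemia.

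Library totals on genes ranged from 11943570 to 19933962 counts. Expression is given as read counts relative to library size (counts per 1e6, CPM) scaled by TMM, which corrects for the make-up of each library, and differences are log2 fold changes of infarct over contralateral cortex with the SE of the edgeR fit. A gene was called where its Benjamini-Hochberg adjusted *p* was under 0.05 and its log2 fold change beyond 1 in either direction, and adjusted *p* values below are those of edgeR's quasi-likelihood test over all tested genes. Of all tested genes, 25.7% were called upregulated in infarcts and 20.9% downregulated, and the 3 infarct and 3 contralateral values did not overlap for 72.3%. If libraries were scaled by their totals and not by TMM, the median of all genes would move by 0.20. All 10 neuron markers were downregulated in infarcts and detected in every library, and 4 of 8 oligodendrocyte markers were upregulated. In bulk tissue, fewer cells of a type and less RNA per cell cannot be told apart.

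Of the 36 tested cell cycle genes, 27 were upregulated in infarcts (25.7% of all tested genes were), 1 was downregulated (20.9% of all) and 8 were not called. Of these 36, 17 needed their infarct libraries to pass the filter on low counts, so the count of calls is no support for the group. Over all 40, tested or not, every infarct lay above every contralateral cortex for 31 genes and below for 2, compared with 72.3% of all tested genes without overlap in either direction, and the regions overlapped for 7. The median log2 fold change of the tested members was 1.75, compared with 0.03 over all tested genes. Most cell cycle transcripts were thus scarcer in contralateral cortex than in infarcts, and *Nusap1*, *Ccne2* and *E2f1* departed most clearly from this.

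**Figure D1:**
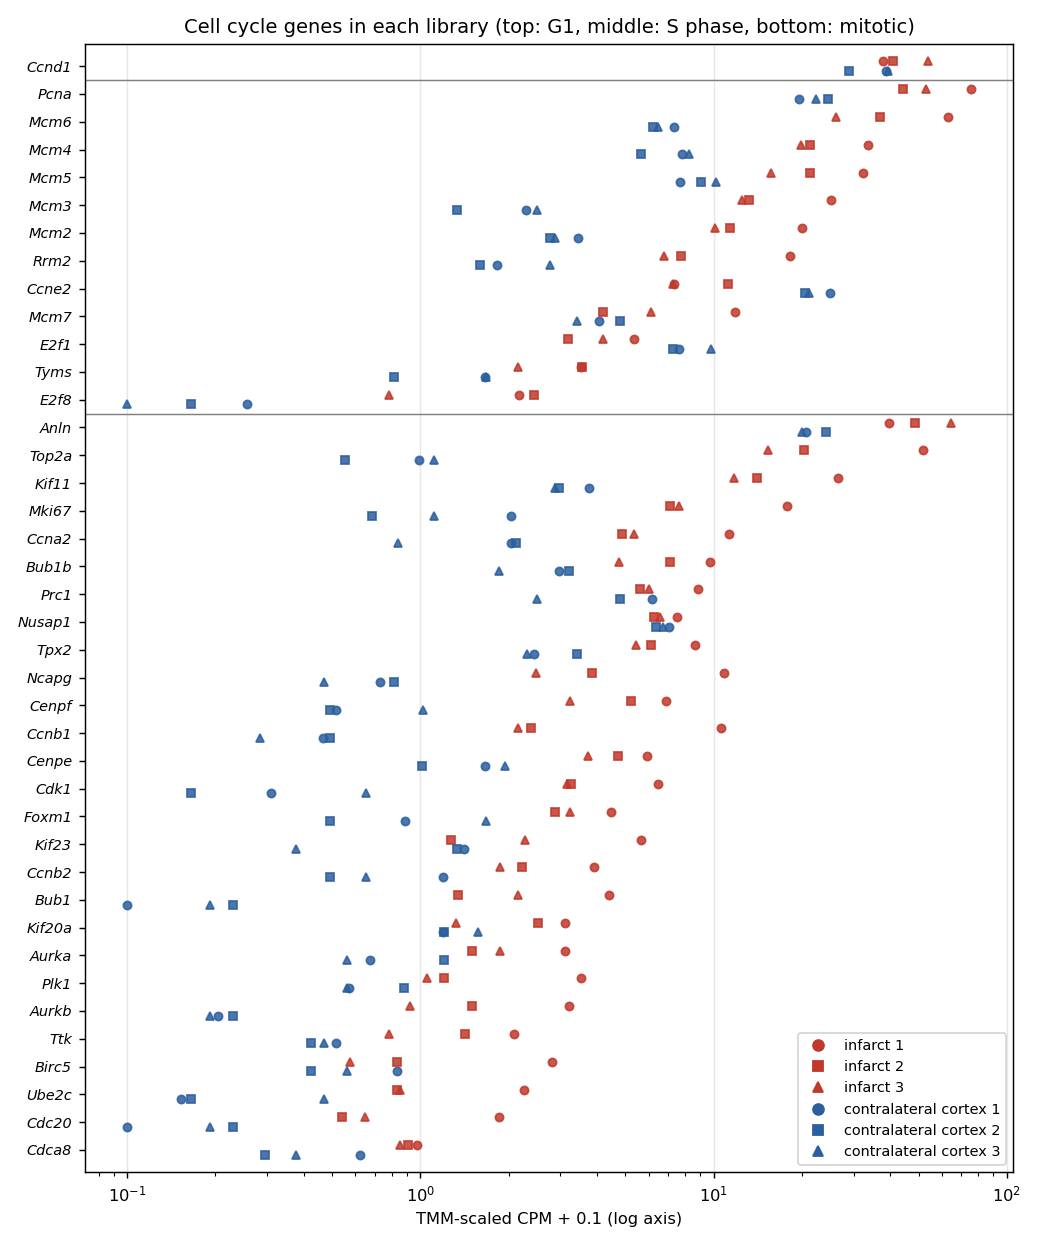
TMM-scaled CPM plus 0.1 of each of the 40 genes on a log axis, with 1 point per library (red, 3 infarcts; blue, 3 contralateral cortices) and a count of 0 drawn at 0.1. Infarct points lie to the right of contralateral points for 31 genes, to the left for *Ccne2* and *E2f1*, and infarct 1 (red circles) is the rightmost infarct for 35 genes.

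*Ccnd1*, cyclin D1, activates CDK4 and CDK6 in G1. It measured 37.6, 40.8 and 53.6 CPM in infarcts 1, 2 and 3, and 38.5, 28.8 and 39.1 CPM in contralateral cortices. The regions overlapped, and the log2 fold change of 0.31 (SE 0.19, adjusted *p* = 0.181) did not pass. Per kilobase of exon, *Ccnd1* was among the more abundant members in both regions (9.34 ± 1.79 and 7.54 ± 1.22 FPKM, SD, n = 3). It shares 23.4% of its exon bases with a gene on the other strand, and the strand setting of the counting is not given in the sources used here.

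The MCM genes encode the 6 subunits of the helicase that is loaded on replication origins in G1 and unwinds DNA in S phase. Among them *Mcm2*, *Mcm3*, *Mcm4*, *Mcm5* and *Mcm6* were upregulated. *Mcm6* (ENSMUSG00000026355, chr1:128331590-128359664 of GRCm38) had 62.8, 36.7 and 26.0 CPM in infarcts and 7.21, 6.12 and 6.37 CPM in contralateral libraries, a log2 fold change of 2.67 (SE 0.30, adjusted *p* = 7.56e-05). *Mcm3* had 25.0, 13.1 and 12.4 CPM compared with 2.194, 1.24 and 2.40 CPM, a log2 fold change of 3.12 (SE 0.36, adjusted *p* = 5.77e-05). In both genes the lowest infarct stood well above the highest contralateral cortex. The log2 fold changes of *Mcm2*, *Mcm4* and *Mcm5* were 2.22 (SE 0.30), 1.80 (SE 0.25) and 1.38 (SE 0.27), and their regions did not overlap either (72.3% of all tested genes did not).

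*Mcm7* was the exception within the helicase. It had 11.7, 4.11 and 6.01 CPM in infarcts and 3.97, 4.69 and 3.32 CPM in contralateral cortices, so infarct 2 fell inside the contralateral range. Its log2 fold change of 0.85 (SE 0.37, adjusted *p* = 0.0699) did not pass. It was 0.35 without infarct 1 and reached a call without infarct 2 (1.15, adjusted *p* = 0.0167) and with scaling by library totals (1.04, adjusted *p* = 0.0321). *Mcm7* shares 8.70% of its exon bases with *Cops6* and *Ap4m1* on the other strand. Within infarcts, the subunits ranged per kilobase from 1.64 ± 0.893 FPKM for *Mcm7* to 8.97 ± 4.06 FPKM for *Mcm6* (SD, n = 3).

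S phase genes are known targets of E2F factors, whose element was searched on both strands as TTT, 2 bases that are each C or G, and CGC, with overlapping matches counted. RefSeq promoter windows (GRCm38.p6, 250 bases before to 50 after the start) were matched for 32 of the 40 members, and the windows of *Mcm6* and *Mcm5*, the most abundant S phase members per kilobase to hold the element, are shown up to the start with the element in capitals. Overlapping matches on the 2 strands appear as 1 longer run of capitals. The *Mcm6* bases lie at chr1:128359706-128359825 on the minus strand and those of *Mcm5* at chr8:75109346-75109508 on the plus strand.
Mcm6: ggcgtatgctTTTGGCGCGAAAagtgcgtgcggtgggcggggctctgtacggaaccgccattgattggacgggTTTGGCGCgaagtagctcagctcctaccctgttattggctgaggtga
Mcm5: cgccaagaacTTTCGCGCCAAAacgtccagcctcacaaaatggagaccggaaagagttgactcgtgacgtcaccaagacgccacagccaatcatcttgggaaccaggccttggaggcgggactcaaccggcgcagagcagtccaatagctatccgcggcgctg

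*Pcna* encodes the sliding clamp that tethers DNA polymerases to the template. It was the most abundant member per kilobase in infarcts, at 24.0 ± 6.75 FPKM compared with 9.20 ± 1.07 FPKM in contralateral cortex (SD, n = 3). Its CPM values were 75.5, 44.1 and 53.1 in infarcts and 19.4, 24.5 and 22.2 in contralateral cortices. The regions were separate, with a log2 fold change of 1.38 (SE 0.21, adjusted *p* = 3.36e-04). *Pcna* was thus well detected in contralateral cortex and differed by less than the helicase subunits *Mcm2*, *Mcm3* and *Mcm6* in these libraries, a difference between genes that was not tested. The pseudogene *Pcna-ps2* held 1 to 10 counts per library.

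*Rrm2* and *Tyms* supply DNA precursors, the first as the small subunit of ribonucleotide reductase and the second as thymidylate synthase. *Rrm2* had 18.1, 7.64 and 6.69 CPM in infarcts and 1.72, 1.50 and 2.68 CPM in contralateral libraries, a log2 fold change of 2.48 (SE 0.43, adjusted *p* = 8.92e-04). *Tyms* had 3.43, 3.45 and 2.05 CPM compared with 1.57, 0.716 and 1.57 CPM, a log2 fold change of 1.21 (SE 0.41, adjusted *p* = 0.0254). Both were upregulated and neither overlapped (72.3% of all tested genes did not). The call of *Tyms* was lost without infarct 2 and without contralateral cortex 2, where the log2 fold change was 0.91 (adjusted *p* = 0.0884).

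*Ccne2*, *E2f1* and *E2f8* belong to the transition from G1 into S phase, and they did not move together. *Ccne2*, cyclin E2 (ENSMUSG00000028212, chr4:11191351-11204779), was the only member that was downregulated. It had 7.25, 11.1 and 7.17 CPM in infarcts and 24.8, 20.4 and 21.1 CPM in contralateral libraries, a log2 fold change of -1.38 (SE 0.21, adjusted *p* = 3.54e-04). Every infarct lay below every contralateral cortex. Of its exon bases, 17.4% are shared with *Ints8* on the other strand. *E2f1*, an activator of S phase genes, had 5.26, 3.08 and 4.10 CPM in infarcts and 7.52, 7.16 and 9.69 CPM in contralateral cortices. All infarcts were again the lower ones, and the log2 fold change of -0.97 (SE 0.26, adjusted *p* = 0.00900) passed on *p* but not on size.

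*E2f8*, an atypical E2F that represses S phase genes later in the cycle, was too scarce to be tested with the others. It had 26, 32 and 10 counts in infarcts against 3, 1 and 0 counts in contralateral libraries. The pooled counts differed 18.9-fold between regions, with an exact interval at 95% confidence of 7.04 to 71.3 that covers counting error only. Fitted with no filter on low counts, *E2f8* was upregulated (adjusted *p* = 3.60e-06). It shares 11.2% of its exon bases with a gene on the other strand.

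Mitotic genes are activated as a group late in the cycle through a pair of promoter elements, the CHR and the CCAAT box, bound by the MuvB core with B-MYB and FOXM1 and by NF-Y. Both were searched on both strands, the CHR as TTTGAA or TTCGAA and the box as CCAAT. The windows of the 4 mitotic members with both elements and the highest levels per kilobase in infarcts are shown up to the start, with both elements in capitals. They lie at chr11:99024190-99024426 on the minus strand (*Top2a*), chr19:37376262-37376381 on the plus strand (*Kif11*), chr9:70421555-70421731 on the minus strand (*Ccnb2*) and chr2:118598013-118598210 on the plus strand (*Bub1b*).
Top2a: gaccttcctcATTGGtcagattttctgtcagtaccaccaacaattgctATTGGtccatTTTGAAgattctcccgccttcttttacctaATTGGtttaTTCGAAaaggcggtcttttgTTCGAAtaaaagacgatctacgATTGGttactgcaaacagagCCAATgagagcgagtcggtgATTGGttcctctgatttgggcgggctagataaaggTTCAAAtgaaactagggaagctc
Kif11: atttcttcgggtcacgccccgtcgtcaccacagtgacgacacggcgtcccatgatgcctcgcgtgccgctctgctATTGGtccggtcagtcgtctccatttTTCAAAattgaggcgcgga
Ccnb2: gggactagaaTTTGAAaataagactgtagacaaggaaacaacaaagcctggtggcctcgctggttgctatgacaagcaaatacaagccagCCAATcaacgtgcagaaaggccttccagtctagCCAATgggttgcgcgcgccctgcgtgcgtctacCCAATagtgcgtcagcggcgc
Bub1b: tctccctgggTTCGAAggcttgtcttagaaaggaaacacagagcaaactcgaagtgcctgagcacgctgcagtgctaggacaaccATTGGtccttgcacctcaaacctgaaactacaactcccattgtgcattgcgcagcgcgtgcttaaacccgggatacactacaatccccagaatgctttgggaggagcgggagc

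A CHR was found in 19 of 23 mitotic windows (82.6%), in 3 of 11 S phase windows (27.3%) and in 19.2% of all 32851 windows of the table. The CHR and CCAAT box occurred together in 18 mitotic windows (78.3%), 3 S phase windows (27.3%) and 7.53% of all windows. The CCAAT box alone did not set the groups apart, since it was found in 87.0% of mitotic and 81.8% of S phase windows, compared with 37.4% of all. The E2F element showed the reverse order, with 4 of 11 S phase windows (36.4%), 2 of 23 mitotic windows (8.70%) and 2.27% of all. *Prc1* and *Mcm7* have 2 windows each, which overlap in *Prc1*. Among mitotic windows, 13 of the 15 belonging to upregulated genes held a CHR, as did 4 of the 5 belonging to genes that were not called. *Nusap1*, the least changed mitotic gene, had none of the 3 elements in its window, and the same held for *Birc5*, *E2f1* and the upregulated *Tyms*. The windows of *Ccnb1* and *Cenpe*, both upregulated, held no CHR. These are matches of letters, and no binding was measured here.

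**Figure D2:**
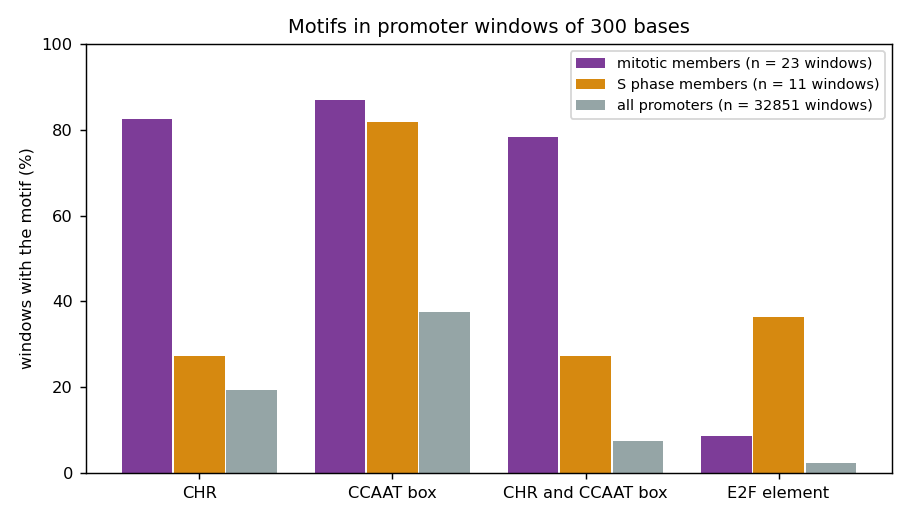
Share of RefSeq promoter windows of 300 bases, in percent, that hold each element, for mitotic members (purple, 23 windows), S phase members (orange, 11 windows) and all windows (grey, 32851 windows). The CHR stands at 82.6% in mitotic windows and 27.3% in S phase windows, and the E2F element at 8.70% and 36.4%.

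Over all 27 mitotic genes, the mean CPM was higher in infarcts for every gene. Every infarct lay above every contralateral cortex for 22, while 72.3% of all tested genes did not overlap in either direction. Of the 24 that were tested, 19 were upregulated (25.7% of all tested genes were) and 5 were not called. Their median log2 fold change was 1.91, with a range of 0.01 to 5.21. With the genes at 3 counts or fewer in every contralateral library set to 3 counts there, the median was again 1.91. It could not have moved, since the tested genes concerned, *Bub1* and *Aurkb*, stayed above it at 3.59 and 3.08. For 16 of these 24 genes, the contralateral libraries alone would not have passed the filter on low counts. The filter thus favored genes that are higher in infarcts, and the count of 19 is no support for the group. With no filter, 22 of 27 were upregulated, and the share of all genes called is given for the main fit only. Of the 8 mitotic genes that had at least 10 counts in every library, 5 were upregulated, with a median of 1.31.

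**Figure D3:**
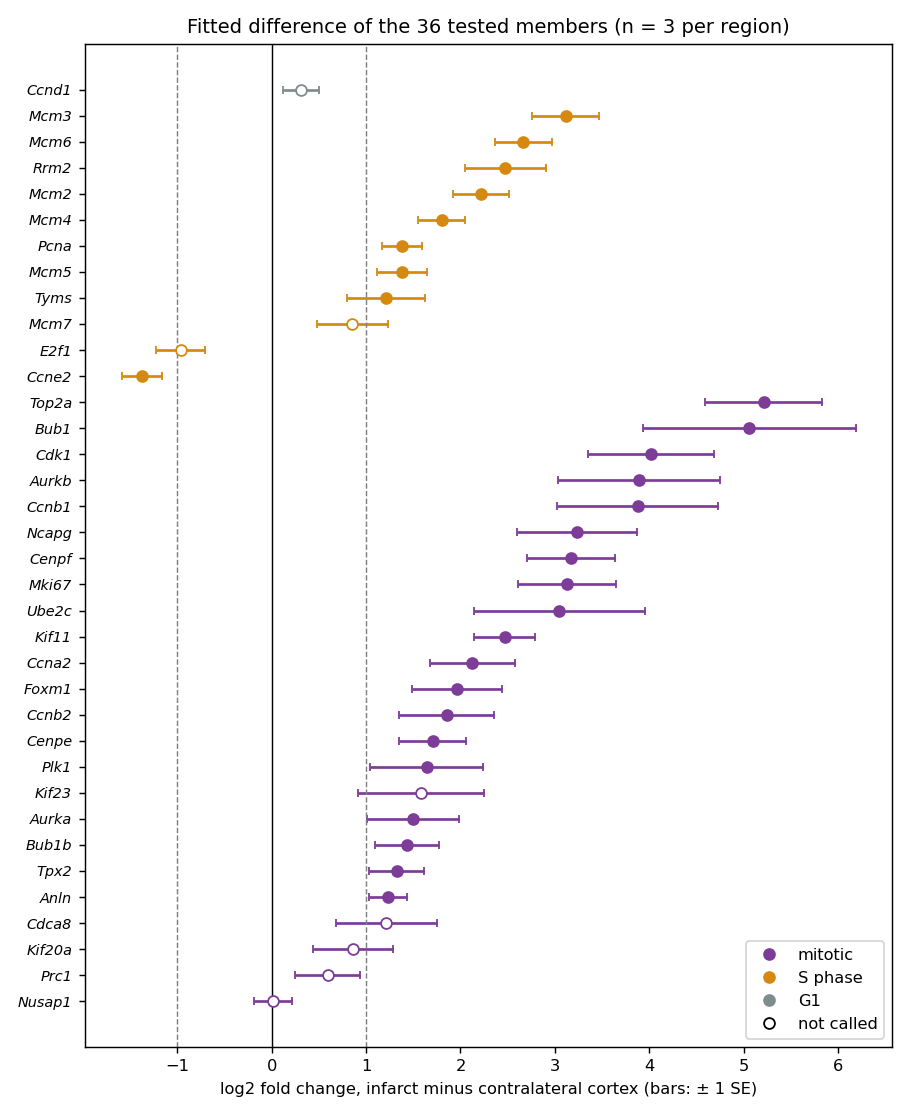
Log2 fold change of infarct over contralateral cortex for the 36 tested members, with bars of 1 SE, filled where called and open where not, and dashed lines at the threshold of 1 in each direction. Mitotic genes (purple) spread from 0.01 for *Nusap1* to 5.21 for *Top2a*, and S phase genes (orange) from -1.38 for *Ccne2* to 3.12 for *Mcm3*.

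The transcripts that label cycling cells in histology and single-cell work showed wide separation. *Top2a*, topoisomerase II alpha, which untangles chromosomes before they separate (ENSMUSG00000020914, chr11:98992943-99024189), had 51.8, 20.2 and 15.3 CPM in infarcts and 0.888, 0.456 and 1.02 CPM in contralateral cortices. It had the highest log2 fold change of the tested members, 5.21 (SE 0.62, adjusted *p* = 1.71e-04), and the 4 CHR and 6 CCAAT matches of its window were shown above. *Mki67*, which encodes the Ki-67 antigen that coats mitotic chromosomes (ENSMUSG00000031004, chr7:135689784-135716361), had 17.7, 6.98 and 7.51 CPM compared with 1.93, 0.586 and 1.02 CPM, a log2 fold change of 3.13 (SE 0.52, adjusted *p* = 7.45e-04). The contralateral *Mki67* values rested on 37, 9 and 11 counts. *Mki67* was therefore low but detectable in contralateral cortex, and every infarct exceeded it.

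The cyclins and kinases that start mitosis were upregulated as well. *Cdk1*, the mitotic kinase, had 6.37, 3.16 and 3.07 CPM in infarcts and 0.209, 0.0651 and 0.554 CPM in contralateral cortices, where it rested on 4, 1 and 6 counts. Its log2 fold change was 4.02 (SE 0.67, adjusted *p* = 2.67e-04). *Ccna2*, cyclin A2, which acts in S phase and at entry into mitosis, had a log2 fold change of 2.13 (SE 0.45, adjusted *p* = 0.00234), and shares 12.5% of its exon bases with *Exosc9* on the other strand. *Ccnb1*, cyclin B1, had 10.5, 2.28 and 2.05 CPM in infarcts and 0.366, 0.391 and 0.185 CPM in contralateral libraries, a log2 fold change of 3.88 (SE 0.85, adjusted *p* = 0.00248). It had the most uneven infarcts of all members, with infarct 1 at 4.86 times the mean of infarcts 2 and 3, and without infarct 1 its log2 fold change was 2.71 (adjusted *p* = 6.61e-04).

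*Ccnb2*, cyclin B2, had 3.82, 2.13 and 1.77 CPM in infarcts and 1.10, 0.391 and 0.554 CPM in contralateral libraries, a log2 fold change of 1.86 (SE 0.51, adjusted *p* = 0.00830). Its processed pseudogene *Ccnb2-ps* held 72 to 100 counts in the infarct libraries and 34 to 85 in the contralateral ones, more than *Ccnb2* itself, so the split of reads between the copies is uncertain. *Foxm1*, the transcription factor of the mitotic program, had 4.38, 2.79 and 3.14 CPM compared with 0.784, 0.391 and 1.57 CPM, a log2 fold change of 1.96 (SE 0.48, adjusted *p* = 0.00480). The regions of both genes were separate (72.3% of all tested genes were).

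The kinases of spindle assembly and chromosome separation were near the limit of detection in contralateral cortex. *Aurkb*, the kinase of the chromosomal passenger complex, had 39, 19 and 12 counts in infarcts against 2, 2 and 1 counts in contralateral libraries, a pooled ratio of 15.5 (exact interval 6.35 to 49.4 for counting error). *Aurka*, the kinase of the spindle poles, had 3.03, 1.40 and 1.77 CPM compared with 0.575, 1.11 and 0.461 CPM, a log2 fold change of 1.50 (SE 0.49, adjusted *p* = 0.0202). *Plk1*, which acts at several steps of mitosis, had 3.43, 1.10 and 0.956 CPM compared with 0.470, 0.781 and 0.461 CPM, a log2 fold change of 1.64 (SE 0.60, adjusted *p* = 0.0329). Both were called in the full set, but their calls rested on single libraries, and *Plk1* shares 7.09% of its exon bases with a gene on the other strand. Without infarct 1, *Plk1* fell to a log2 fold change of 0.85 (adjusted *p* = 0.185) and *Aurka* to 1.14 (adjusted *p* = 0.0735). The call of *Plk1* was also lost without any 1 of the contralateral cortices, and that of *Aurka* without contralateral cortex 1 or 3.

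The spindle checkpoint holds back anaphase until all chromosomes are attached. *Bub1*, 1 of its kinases, had 54, 17 and 30 counts in infarcts against 0, 2 and 1 counts in contralateral libraries, a pooled ratio of 37.4 (exact interval 12.4 to 184 for counting error), and was upregulated (adjusted *p* = 4.22e-04). *Bub1b*, which encodes BUBR1, was better measured in contralateral cortex. It had 9.64, 6.98 and 4.64 CPM in infarcts and 2.87, 3.13 and 1.75 CPM in contralateral libraries, a log2 fold change of 1.43 (SE 0.34, adjusted *p* = 0.00431). *Ttk*, the MPS1 kinase, did not reach the filter with 25, 18 and 10 counts compared with 8, 5 and 4, and fitted with no filter it was upregulated with a log2 fold change of 1.82 (adjusted *p* = 0.0143). Infarcts were above contralateral cortices without overlap for all 3 checkpoint kinases, while 72.3% of all tested genes did not overlap in either direction.

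At kinetochores, chromosomes and the spindle, most members were upregulated. *Cenpf* and *Cenpe*, proteins of the outer kinetochore, had log2 fold changes of 3.17 (SE 0.47, adjusted *p* = 2.04e-04) and 1.71 (SE 0.35, adjusted *p* = 0.00200). *Ncapg*, a condensin subunit that compacts chromosomes, had 10.8, 3.74 and 2.39 CPM in infarcts and 0.627, 0.716 and 0.369 CPM in contralateral libraries, a log2 fold change of 3.24 (SE 0.64, adjusted *p* = 0.00152). It shares 13.4% of its exon bases with *Lcorl* on the other strand. *Kif11*, the kinesin that pushes spindle poles apart, had 26.4, 14.0 and 11.7 CPM compared with 3.66, 2.86 and 2.77 CPM, a log2 fold change of 2.47 (SE 0.33, adjusted *p* = 1.35e-04). It had at least 30 counts in every library, and its window holds 1 CHR and 1 CCAAT box. *Tpx2*, which activates Aurora A kinase on spindle microtubules, had a log2 fold change of 1.32 (SE 0.29, adjusted *p* = 0.00288). In each of these genes the regions were separate, as they were for 72.3% of all tested genes.

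*Prc1*, *Kif23* and *Kif20a*, which act at the spindle midzone in late mitosis, were not called. *Prc1*, which bundles midzone microtubules, had 8.76, 5.51 and 5.94 CPM in infarcts and 6.06, 4.69 and 2.40 CPM in contralateral libraries, a log2 fold change of 0.59 (SE 0.34, adjusted *p* = 0.155). *Kif23*, a centralspindlin motor, had 5.58, 1.17 and 2.18 CPM compared with 1.31, 1.24 and 0.277 CPM (1.58, SE 0.66, adjusted *p* = 0.0605). *Kif20a*, which carries passenger proteins to the midzone, had 3.03, 2.42 and 1.23 CPM compared with 1.10, 1.11 and 1.48 CPM (0.86, SE 0.42, adjusted *p* = 0.0976). At least 1 infarct lay within or below the contralateral range for each of these genes. *Kif23* was called with DESeq2, with no filter, with thinned counts, with library totals, without infarct 2 and without infarct 3, but had a log2 fold change of 0.78 without infarct 1. *Kif20a* was called with library totals and without infarct 3. *Prc1* was called under none of the alternatives, with 0.37 without infarct 1 and 0.32 without contralateral cortex 3. *Kif20a* shares 29.3% of its exon bases with *Cdc23* on the other strand, and *Prc1* 11.1% with *Rccd1*.

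*Nusap1* and *Anln* departed from the rest in other ways. *Nusap1*, a microtubule-bundling protein of the spindle (ENSMUSG00000027306, chr2:119618298-119651244), had 7.41, 6.17 and 6.48 CPM in infarcts and 6.95, 6.25 and 6.64 CPM in contralateral cortices, so the regions lay within the same narrow range. Its log2 fold change was 0.01 (SE 0.21, adjusted *p* = 0.956), with at least 72 counts in every library, and its sign turned with upper-quartile scaling and with thinned counts. *Anln*, anillin, organizes the contractile ring in cytokinesis and is also a part of the septin scaffold of myelin. It had 39.4, 48.5 and 64.5 CPM in infarcts and 20.6, 24.1 and 19.9 CPM in contralateral libraries, a log2 fold change of 1.24 (SE 0.20, adjusted *p* = 4.60e-04). It was the only mitotic member that was not highest in infarct 1, and it was the most abundant mitotic member per kilobase in both regions (5.60 ± 1.40 and 2.38 ± 0.246 FPKM, SD, n = 3). The summed CPM of 8 oligodendrocyte markers took the same order, with 4349, 5009 and 6986 in infarcts 1, 2 and 3 and 2183 to 2606 in contralateral cortices, and their part in the *Anln* result was not tested. The 8 markers were detected in every library.

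The remaining members serve the passenger complex and the exit from mitosis. *Birc5*, survivin, had 34, 10 and 7 counts in infarcts against 14, 5 and 5 counts in contralateral libraries, and did not pass when fitted with no filter (adjusted *p* = 0.0846). *Cdca8*, borealin, had 11 counts in each infarct against 10, 3 and 3 counts in contralateral libraries (log2 fold change 1.21, SE 0.53, adjusted *p* = 0.0635), and was called with library totals and without contralateral cortex 1. Both of these genes of the passenger complex, *Birc5* and *Cdca8*, were thus too scarce for a firm statement. *Cdc20* and *Ube2c*, the activator and the ubiquitin-conjugating enzyme of the anaphase-promoting complex (APC/C), were at or near 0 in contralateral cortex. *Cdc20* had 22, 6 and 8 counts compared with 0, 2 and 1, a pooled ratio of 13.3 (exact interval 4.21 to 67.6 for counting error), and was upregulated in the fit with no filter (adjusted *p* = 0.00107). *Ube2c* had 27, 10 and 11 counts compared with 1, 1 and 4, a log2 fold change of 3.05 (SE 0.91, adjusted *p* = 0.00738). *Ube2c* shares 22.8% of its exon bases with *Tnnc2* on the other strand.

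S phase and mitotic genes were then set side by side. Of the 11 tested S phase genes, 8 were upregulated (25.7% of all tested genes were), 1 was downregulated (20.9% of all) and 2 were not called. Their median log2 fold change was 1.38, compared with 1.91 for tested mitotic genes. The order of these medians depended on which genes were counted. Among genes with at least 10 counts in every library, the median was 1.41 for 11 S phase genes and 1.31 for 8 mitotic genes. Only 1 of 11 tested S phase genes, but 16 of 24 tested mitotic genes, needed the infarct libraries to pass the filter. No difference in response between the phases can be drawn from the medians.

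The same comparison was made within each library, as the summed CPM of mitotic genes in percent of that of S phase genes. It was 88.0%, 86.8% and 96.6% in infarcts and 66.1%, 67.2% and 54.1% in contralateral cortices. The 3 infarcts were above the 3 contralateral cortices, and the means were 90.5% ± 5.31 and 62.5% ± 7.25 (SD, n = 3; exact permutation test, two-sided *p* = 0.1, the smallest that 3 against 3 can give). The sums lean on a few abundant genes, among them *Anln*, *Pcna* and the downregulated *Ccne2*. In a version chosen after seeing the data, with *Mcm2* to *Mcm7* for S phase and *Anln* left out, the shares were 120%, 99.7% and 104% in infarcts and 115%, 110% and 87.7% in contralateral cortices. These overlapped, with means of 108% ± 10.5 and 104% ± 14.7 (SD, n = 3; exact permutation *p* = 0.8). In sum, the infarct mean was 4.06 times the contralateral mean for the helicase genes (128 and 31.4 CPM) and 4.31 times for the mitotic genes without *Anln* (141 and 32.7 CPM).

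The 3 infarcts were not alike in these genes. Infarct 1 was the highest infarct for 26 of the 27 mitotic and 9 of the 12 S phase genes, compared with 36.5% of all tested genes and 60.5% of all upregulated genes. The ratio of infarct 1 to the mean of infarcts 2 and 3 had a median of 2.0 over tested mitotic genes and 1.76 over tested S phase genes, compared with 0.99 over all tested genes and 1.18 over upregulated genes. The 27 mitotic genes summed to 261, 156 and 158 CPM in infarcts 1, 2 and 3 and 48.9 to 57.6 CPM in contralateral cortices, and the 12 S phase genes to 297, 179 and 164 CPM and 83.6 to 90.4 CPM. In the subsets chosen after seeing the data, the mitotic genes without *Anln* reached 222, 107 and 93.5 CPM in infarcts, and 29.0 to 37.0 CPM in contralateral cortices. The 6 MCM genes reached 185, 108 and 89.8 CPM, and 29.2 to 33.0 CPM in contralateral cortices. In each of these sums infarct 1 was the highest, and all 3 infarcts stood above all contralateral cortices.

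**Figure D4:**
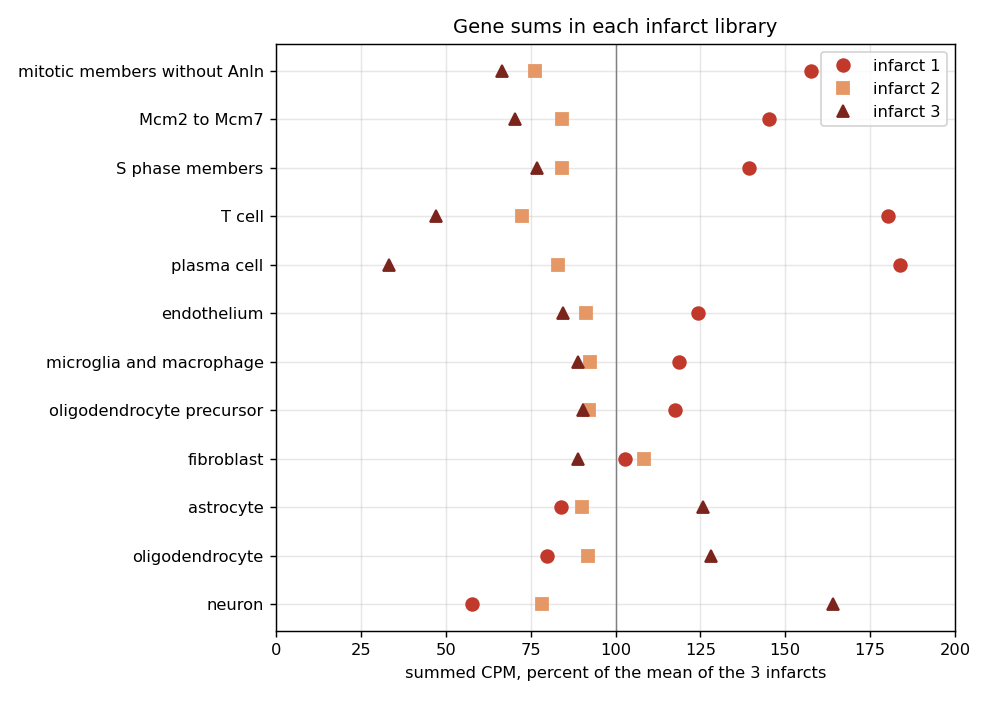
Summed CPM of gene groups in each infarct, in percent of the mean of the 3 infarcts, with 1 point per infarct and a line at 100. Mitotic genes without *Anln*, the MCM genes and S phase genes are highest in infarct 1. The same holds for the summed markers of T cells, plasma cells, endothelium, microglia and macrophages, and oligodendrocyte precursors. Fibroblast markers are highest in infarct 2, and neuron, astrocyte and oligodendrocyte markers in infarct 3.

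Markers of some cell types moved with this spread. The summed CPM of 10 T cell markers was 192, 77.1 and 50.2 in infarcts 1, 2 and 3 and 2.72 to 3.78 in contralateral cortices. All 9 tested T cell markers were upregulated (25.7% of all tested genes were). The summed CPM of 8 plasma cell markers was 2595, 1172 and 470 compared with 98.7 to 117, with 7 of 7 tested upregulated. Every contralateral library held 3 counts or fewer of the T cell markers *Cd3d*, *Cd3g*, *Cd8a*, *Cd8b1*, *Cd2* and *Cd5*, and the plasma cell markers *Mzb1*, *Tnfrsf17* and *Pou2af1*. Such markers can pass the filter on low counts only with their infarct libraries, so these counts of calls are no support for either list. Not all markers of the 2 lists were near 0 in contralateral cortex, with up to 51 counts in a contralateral library for T cell and 2010 for plasma cell markers. The part of these cell types in the cell cycle results was not tested. The 10 markers of microglia and macrophages summed to 2235, 1746 and 1674 CPM compared with 285 to 367 CPM, with 9 of 10 upregulated. The 8 endothelial markers summed to 833, 612 and 566 CPM compared with 274 to 304 CPM, with 4 of 8 upregulated (25.7% of all tested genes were).

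Other cell types did not follow the order of the cell cycle genes. The 7 markers of oligodendrocyte precursors summed to 609, 478 and 470 CPM in infarcts and 197 to 237 CPM in contralateral cortices, but 6 of the 7 were highest in infarct 3, and the order of the sum was set by the 1 that was upregulated. The 8 fibroblast markers summed to 9023, 9510 and 7792 CPM in infarcts and 529 to 667 CPM in contralateral cortices. Of these, 7 of 8 were upregulated (25.7% of all tested genes were) and 1 was downregulated (20.9% of all). The 10 neuron markers summed to 876, 1189 and 2490 CPM compared with 12018 to 12733 CPM, and the 8 astrocyte markers to 5192, 5573 and 7771 CPM compared with 13587 to 14462 CPM. Both sums were lowest in infarct 1. Of the 8 astrocyte markers, 2 were upregulated and 1 was downregulated. Their median log2 fold change was 0.11, with 4 higher and 4 lower in infarcts, so the lower sum does not describe the list as a whole. The 8 markers of neural progenitors and neuroblasts summed to 67.6 to 78.3 CPM in infarcts and 99.9 to 137 CPM in contralateral cortices, with 2 of 6 tested upregulated and 2 downregulated. The part of each of these cell types in the cell cycle results was not tested. Without infarct 1, 17 of 25 tested mitotic genes were upregulated, with a median log2 fold change of 1.55, and 9 of 12 S phase genes were upregulated, with a median of 1.35. The share of all genes called without infarct 1 was not tallied, so these counts have no background beside them.

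The rest of the cell cycle machinery was counted from wider lists. Of 36 other mitotic genes, 29 were tested, 19 were upregulated (25.7% of all tested genes were) and 10 were not called. Their median log2 fold change was 2.13. Of the 36, 8 were at 3 counts or fewer in every contralateral library. Such genes can pass the filter only with their infarct libraries, so the count of 19 is no support for the group. *Dlgap5*, a spindle protein, and *Ndc80*, a microtubule coupler of the kinetochore, had the highest fitted values and were at 3 counts or fewer in every contralateral library, with pooled ratios of 30.0 (exact interval 7.91 to 254) and 14.0 (5.69 to 44.6). *Kif22* and *Incenp* had the lowest, at -0.69 (SE 0.39, adjusted *p* = 0.139) and -0.49 (SE 0.20, adjusted *p* = 0.0598). Of 30 other S phase genes, 28 were tested, 17 were upregulated (25.7% of all tested genes were) and 11 were not called. Their median was 1.23, and 3 of the 30 were at 3 counts or fewer in every contralateral library. *Chaf1b*, a histone chaperone subunit at the replication fork, had a pooled ratio of 15.0 (exact interval 6.60 to 42.1), and *Gins2*, a helicase cofactor that shares 67.3% of its exon bases with *Gse1* on the other strand, of 16.4 (6.07 to 62.1). The lowest were *Dut* at -0.68 (SE 0.25, adjusted *p* = 0.0377) and *Mcm8* at -0.66 (SE 0.21, adjusted *p* = 0.0184), short of the fold change threshold.

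**Figure D5:**
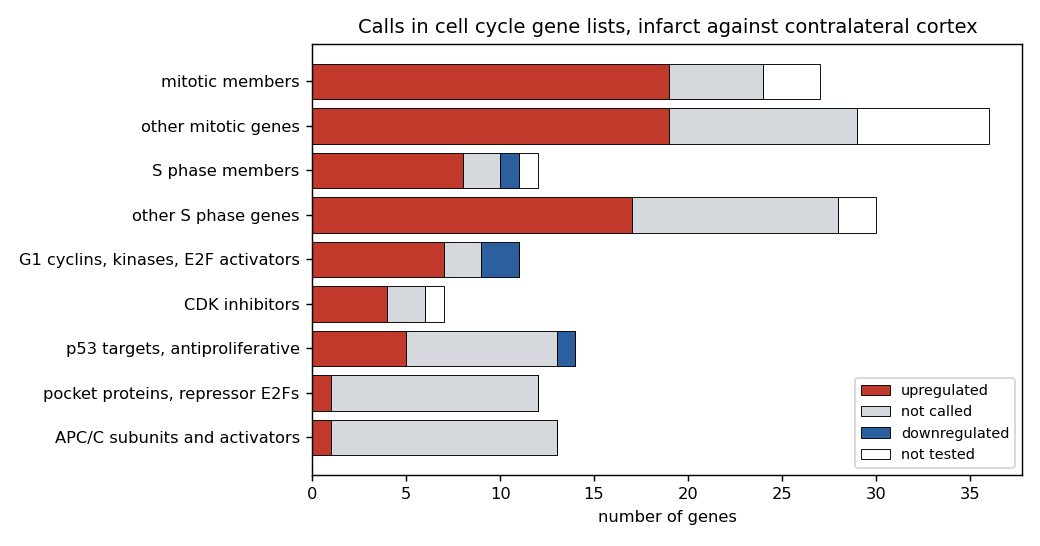
Number of genes in each cell cycle list that were upregulated (red), not called (grey), downregulated (blue) or not tested (white) in infarcts. Mitotic and S phase lists are mostly red, whereas 1 of 12 pocket protein and repressor E2F genes and 1 of 13 APC/C genes are red.

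Among 11 other G1 regulators, 7 were upregulated (25.7% of all tested genes were) and 2 were downregulated (20.9% of all), and all 11 were separate between regions (72.3% of all). The kinases were upregulated, with *Cdk2* at a log2 fold change of 2.85 (SE 0.28), *Cdk6* at 2.76 (SE 0.19) and *Cdk4*, which shares 19.7% of its exon bases with *Tspan31* on the other strand, at 1.70 (SE 0.18). *Ccnd2* and *Ccnd3*, the other D cyclins, were upregulated at 1.02 (SE 0.14) and 1.88 (SE 0.18), and 7.86% of the exon bases of *Ccnd2* are shared with genes on the other strand. *Cdk6* had 69.8, 56.4 and 51.3 CPM in infarcts and 10.3, 8.66 and 7.01 CPM in contralateral cortices. *Ccne1*, the partner gene of *Ccne2*, was downregulated like it, with 1.91, 1.40 and 2.53 CPM in infarcts and 9.87, 9.31 and 7.75 CPM in contralateral libraries, a log2 fold change of -2.20 (SE 0.28, adjusted *p* = 8.47e-05). Both cyclin E transcripts were therefore lower in infarcts while that of their kinase, *Cdk2*, was higher.

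*Mycn*, a MYC family factor, was downregulated with 1.35, 0.587 and 2.12 CPM compared with 7.57, 8.53 and 9.69 CPM (log2 fold change -2.65, SE 0.38, adjusted *p* = 2.10e-04). *Myc* was upregulated at 1.92 (SE 0.42) and *E2f2*, an activating E2F, at 3.22 (SE 0.59). *Myc* and *Mycn* were thus called in opposite directions. *Cdc25a*, a CDK-activating phosphatase, at 0.99 (SE 0.22, adjusted *p* = 0.00325), and *E2f3*, at -0.35 (SE 0.18, adjusted *p* = 0.120), were not called.

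Of the 7 CDK inhibitors, which halt the cycle, 6 were tested and 4 were upregulated (25.7% of all tested genes were). *Cdkn1a*, which encodes p21, had 26.1, 27.0 and 22.7 CPM in infarcts and 6.27, 5.53 and 8.58 CPM in contralateral libraries, a log2 fold change of 1.90 (SE 0.20, adjusted *p* = 3.22e-05). *Cdkn1c* (p57) and *Cdkn2c* (p18) were upregulated at 2.78 (SE 0.27) and 1.57 (SE 0.28), and *Cdkn1c* shares 30.7% and *Cdkn1a* 7.68% of their exon bases with a gene on the other strand. *Cdkn2b* (p15) was upregulated from 5 contralateral to 43 infarct counts in all, a pooled ratio of 9.55 (exact interval 3.79 to 30.9). *Cdkn1b* (p27), the most abundant inhibitor per kilobase in infarcts (34.9 FPKM), was not called at 0.56 (SE 0.21, adjusted *p* = 0.0376), nor was *Cdkn2d* (p19) at -0.78 (SE 0.28, adjusted *p* = 0.0301). *Cdkn2a*, which encodes p16 and ARF, had 2, 2 and 11 counts in infarcts against 0, 0 and 2 in contralateral cortices and was not tested. Infarct 1 was the highest infarct for 2 of the 6 tested inhibitors, *Cdkn1c* and *Cdkn2c*, and its ratio to the mean of infarcts 2 and 3 had a median of 1.02 over the 6.

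Other brakes and exit factors were counted last. Of 12 pocket protein, repressor E2F and MuvB genes, only *Rbl1*, which encodes p107, was upregulated, with 42.7, 30.3 and 21.3 CPM compared with 3.55, 2.73 and 3.97 CPM (log2 fold change 3.20, SE 0.28, adjusted *p* = 9.38e-06). *Mybl2*, which encodes B-MYB, had a log2 fold change of 1.06 (SE 0.45, adjusted *p* = 0.0583), and *Lin37* and *Lin52* had -0.42 (SE 0.26) and -0.27 (SE 0.16). Of 14 p53 targets and antiproliferative genes, 5 were upregulated, led by *Gadd45a*, with 19.1% of its exon bases shared with a gene on the other strand, at 3.02 (SE 0.46) and *Btg1* at 2.48 (SE 0.19), and *Plk2* was downregulated at -1.27 (SE 0.22), with *Tob1* next at -0.67 (SE 0.21, adjusted *p* = 0.0175). The 35.7% of this list that were upregulated are near the 25.7% of all tested genes. Of 13 APC/C genes, only the inhibitor *Fbxo5* was upregulated, at 2.0 (SE 0.61, adjusted *p* = 0.0152). *Anapc1* had 0.75 (SE 0.18), and *Fzr1*, the activator that keeps resting cells out of the cycle, had -0.63 (SE 0.21, adjusted *p* = 0.0222), followed by *Cdc27* at -0.30 (SE 0.13). Upregulated genes made up 8.33% of the pocket protein list and 7.69% of the APC/C list, less than the 25.7% of all tested genes. The medians of these 3 lists were 0.57, 0.58 and 0.26, compared with 0.03 over all tested genes.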

How the data were processed

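Counts were made by the authors, who per the labels and the study's methods prepared stranded mRNA libraries, demultiplexed reads with bcl2fastq 2.19, trimmed them with Trimmomatic 0.32, aligned them to GRCm38 with STAR 2.5.2b and counted them per Ensembl gene with htseq-count. The deposited values are whole counts without normalization, and the annotation and strand setting of the counting are not given in the sources used here. Entries naming no gene (5 per table, 26.6% to 34.3% of tallied reads) were left out. Of 46078 identifiers, 45229 matched GENCODE M21, which gave symbols and exon lengths. Tissue groups were taken from the labels.

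Counts were analyzed with edgeR 4.0.16 in R 4.3.3 (filterByExpr, TMM, robust glmQLFit and glmQLFTest with region as the only term), adjusting *p* values over 15554 genes. The procedure was tested on simulated data in which few genes were changed, equally many up and down. That test therefore does not cover differences as widespread as those between these regions. FPKM is TMM-scaled CPM per kilobase of exon. Ratios of pooled counts, scaled by the effective library sizes, carry exact (Clopper-Pearson) intervals at 95% confidence from SciPy 1.17.1. Since reads carry no molecular identifiers and so are not independent, these intervals cover counting error only. The members and lists were chosen with earlier results of these data known. All 40 members, the CDK inhibitors and the G1 regulators could be named, as could the 2 highest and 2 lowest genes of each other pathway list, and marker lists are given by counts, sums and the markers at 3 counts or fewer. The study used DESeq2, which was run here as an alternative (1.42.0), as were limma voom (3.58.1), RLE, upper quartile and library total scaling, no filter, a filter of 10 counts in each library, calls on *p* alone, glmTreat, thinned counts, the replicate number as a block and leaving out each library. Peri-infarct and treated tissue were not analyzed here, and 1 marker list is not reported here.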

Additional observations from a re-analysis of the deposited data

How the results depend on the processing

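None of the 27 mitotic members was downregulated under any alternative. Shares of all tested genes called were tallied for the main fit only, so counts under the alternatives have no background beside them. Requiring at least 10 counts in every library left 8 mitotic genes, of which 5 were upregulated, with a median log2 fold change of 1.31 in place of 1.91. The tested mitotic genes removed by this filter all had under 10 counts in at least 1 contralateral library. The 2 medians thus cover genes selected differently by their contralateral level. S phase genes downregulated numbered 2 (*Ccne2* and *E2f1*) with thinned counts and with no fold change threshold. Leaving out each library in turn gave 17 to 23 upregulated mitotic genes, 0 to 0 downregulated, 8 to 9 upregulated and 1 to 2 downregulated S phase genes, and medians of 1.55 to 2.06 and 1.35 to 1.78. The sign of *Nusap1* turned with upper-quartile scaling (-0.0085), with thinned counts (-0.022), without infarct replicate 1 (-0.045) and without contralateral replicate 2 (-0.033), within a range of -0.045 to 0.087 over the libraries left out, and the cause was not tested. With glmTreat 13 mitotic and 6 S phase genes were upregulated, and with DESeq2, with library totals and with no filter 22 and 9 were. The ratio of mitotic to S phase sums moved from 90.5% and 62.5% to 108% and 104% with the genes chosen after seeing the data.

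With the replicate block, 18 mitotic and 8 S phase genes were upregulated, with medians of 1.99 and 1.35, and *Plk1* was the only member to lose its call. Deviations of same-numbered libraries from their region means had correlations of -0.19, 0.10 and 0.0011. With 3 libraries per region, these values cannot show whether the numbers mark animals, and no pairing was assumed. Of the called members, 19 of 27 upregulated and 1 of 1 downregulated kept their call under every alternative that tested them. In contralateral cortex, 8 of the 40 members had under 10 counts in every library.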
